A study of Mus musculus with 4 samples.

Results

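Scavenger receptors are surface proteins with which macrophages take up modified lipoproteins, dead cells, bacteria, haemoglobin complexes and matrix fragments. They are described here by class: Marco and Msr1 of class A, Cd36 of class B, the mannose receptor Mrc1, the haemoglobin receptor Cd163, and Stab1 and Lyve1, which bind hyaluronan or other extracellular ligands. The 7 genes were chosen by name, and all 7 were found by symbol among the 27998 genes of the deposited matrices. Their levels were followed in macrophages, monocytes and dendritic cells of injured mouse muscle, by genotype and by day.

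The samples were CD45+ cells from tibialis anterior muscle of male C57BL/6 mice aged 8 to 12 weeks, in which an injection of cardiotoxin, a snake toxin that kills muscle fibres, had started a round of injury and repair. A total of 4 groups of 1 library each were compared: control at day 2 after injury (dpi2), KO at dpi2, control at day 4 (dpi4) and KO at dpi4. The control mice were Bach1 fl/fl littermates, and the KO mice (Bach1-cKO) were Bach1 fl/fl with Lyz2-Cre, so that the floxed allele was shared by all groups and the deletion was limited to cells in which the Lyz2 promoter is active, mainly monocytes, macrophages and neutrophils. BACH1 is a haem-sensitive transcriptional repressor.

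Macrophages of injured muscle arise mostly from blood monocytes that enter within days, beside a smaller resident population. Both meet dying fibres and leaked haem proteins, and uptake through scavenger receptors is among their best known tasks. Mrc1, Cd163 and Lyve1 are widely used as markers of resident or repair-associated macrophages, while Marco is best known from macrophages of the spleen's marginal zone, the peritoneum and the lung.

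Each library held 4177 to 6602 barcodes, of which 3433 to 5721 were kept as cells, with a median of 10702 to 15157 unique molecular identifiers (UMIs) a cell. Barcodes with at least 10% mitochondrial UMIs, which were left out, made up 6.61% to 8.1% of a dpi2 library but 15.4% to 19.9% of a dpi4 library, and the part of this in the differences between days was not tested. Any pair of libraries shared 2 to 14 cell barcodes. Cells were clustered without the 7 genes, and clusters were named from marker genes. There were 1886, 1040, 3244 and 2575 macrophages in the libraries control dpi2, KO dpi2, control dpi4 and KO dpi4, an order that is kept below wherever 4 values follow each other. In the same order there were 2570, 990, 37 and 64 monocytes and 303, 234, 396 and 424 dendritic cells, so monocyte values at dpi4 rest on few cells. Summed over all macrophages, the 9 macrophage markers stood between 10800 and 40200 UMIs per 1000000 UMIs of these cells (CPM), the 6 monocyte markers between 355 and 1080, and the 8 dendritic cell markers between 9.03 and 14.5. In the cells named monocytes the monocyte markers stood at 9700, 7300, 6740 and 7420 CPM and the macrophage markers at 3240, 3680, 8790 and 8740 CPM. The few monocytes of dpi4 thus held more of the macrophage markers than those of dpi2, and the part of this in the monocyte values was not tested. In the cells named dendritic cells the dendritic cell markers stood between 1120 and 1360 CPM, the monocyte markers at 3080, 2000, 1390 and 1500 CPM and the macrophage markers at 470, 901, 5420 and 3100 CPM, with UMIs of all 6 and all 9 in each library. Both sums differed between KO and control, and their part in the dendritic cell values was not tested. Lyz2, whose locus carries the Cre in the KO mice, was at 0.00157 of the control level in KO macrophages at dpi2 and at 0.00131 at dpi4 and so went with the genotype labels. Bach1 itself was no check, since a 3′ library also counts transcripts without the floxed exon 4, and its KO to control ratio in macrophages was 1.17 at dpi2 and 1.05 at dpi4. KO thus differed from control in Cre and in the Lyz2 level besides the Bach1 deletion. The part of each in the KO to control ratios below was not tested.

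With 1 library a group there were no replicates, so the values come without p-values. A level is the summed UMIs of a gene over all cells of a class in 1 library, in CPM of all UMIs of these cells, and a ratio is that of 2 such levels. Intervals are 95% intervals for counting error only, and they are too narrow where few cells hold most UMIs of a gene. A gene was called higher or lower by a size rule, which asked for a ratio of at least 2-fold with an interval that leaves out 1 and for at least 50 UMIs in the pair. Levels were compared within a gene, not between genes.

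The genes lie on 7 chromosomes of the mouse genome (GRCm38, GENCODE vM21, which gives the same 7 gene identifiers as the matrices): Marco at chr1:120474538-120505024, Msr1 at chr8:39581685-39642673, Cd36 at chr5:17781690-17888801, Stab1 at chr14:31139013-31168641 and Lyve1 at chr7:110850607-110863239 on the minus strand, and Mrc1 at chr2:14229392-14332057 and Cd163 at chr6:124304656-124330527 on the plus strand. A RefSeq window of 250 bases before the transcription start (GRCm38.p6) was at hand for 5 of them. The windows of Marco (chr1:120505025-120505274, minus strand) and Cd163 (chr6:124304401-124304650, plus strand) are shown, because these 2 genes passed the size rule between KO and control macrophages at dpi2. They read 5′ to 3′ along the gene, with capitals for the letters GAGGAA on either strand, the core of sites for the myeloid factor PU.1:
Marco: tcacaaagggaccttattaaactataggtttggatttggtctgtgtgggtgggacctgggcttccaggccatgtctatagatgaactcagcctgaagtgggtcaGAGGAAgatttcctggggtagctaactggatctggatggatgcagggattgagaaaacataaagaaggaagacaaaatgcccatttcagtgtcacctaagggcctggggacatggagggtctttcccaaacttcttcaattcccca
Cd163: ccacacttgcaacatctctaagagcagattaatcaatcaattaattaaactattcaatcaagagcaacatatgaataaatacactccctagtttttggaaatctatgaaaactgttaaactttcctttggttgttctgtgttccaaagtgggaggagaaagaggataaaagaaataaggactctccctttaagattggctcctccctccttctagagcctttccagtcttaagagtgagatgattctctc
Marco held this core 1 time, 146 bases before the start, and Cd163 held none. Of the other windows, that of Mrc1 held it 3 times, that of Stab1 1 time and that of Cd36 not at all, while 23.3% of the 32851 mouse windows of this length held it at least 1 time. The letters TGACNNNGC, the core of the antioxidant response element, and TGAGTCA, found in AP-1 sites and in the Maf recognition element through which BACH1 binds with small Maf proteins, were in none of the 5 windows on either strand. They were in 10.2% and 4.46% of all windows. A match is a run of letters and not a measured site, and the windows leave out any distal element.

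In macrophages at dpi2, 2 of the 7 genes were past the size rule, Marco and Cd163, both higher in KO, beside 4.3% of all 11133 genes with enough UMIs. At dpi4, 2 were past it, Marco higher and Lyve1 lower in KO, beside 2.78% of 12059 genes. From dpi2 to dpi4 the set was mostly lower. In control, Msr1, Cd36, Cd163 and Lyve1 were lower and Marco higher (5 of 7, beside 16.7% of all genes), and in KO, Msr1, Mrc1, Cd163 and Lyve1 were lower (4 of 7, beside 14.1%). The median log2 ratio of the 7 genes was 0.5 between genotypes at dpi2, 0.25 at dpi4, -1.45 for dpi4 over dpi2 in control and -1.18 in KO, while that of all genes lay between -0.07 and 0.02. The genotypes were held by different sub-clusters: at dpi2 the largest groups of macrophages were sub-cluster 2 (led by Spp1, Syngr1 and Htr2b) in control and sub-cluster 11 (led by Rnf128 and Gpnmb) in KO, and at dpi4 they were sub-cluster 1 (Id3, Il1b and Tnfsf9) in control and sub-cluster 6 (Gdf15, Vcam1 and Slc40a1) in KO. Ratios within sub-clusters that held at least 50 cells in both libraries are therefore given beside those over all macrophages.

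**Figure D1:**
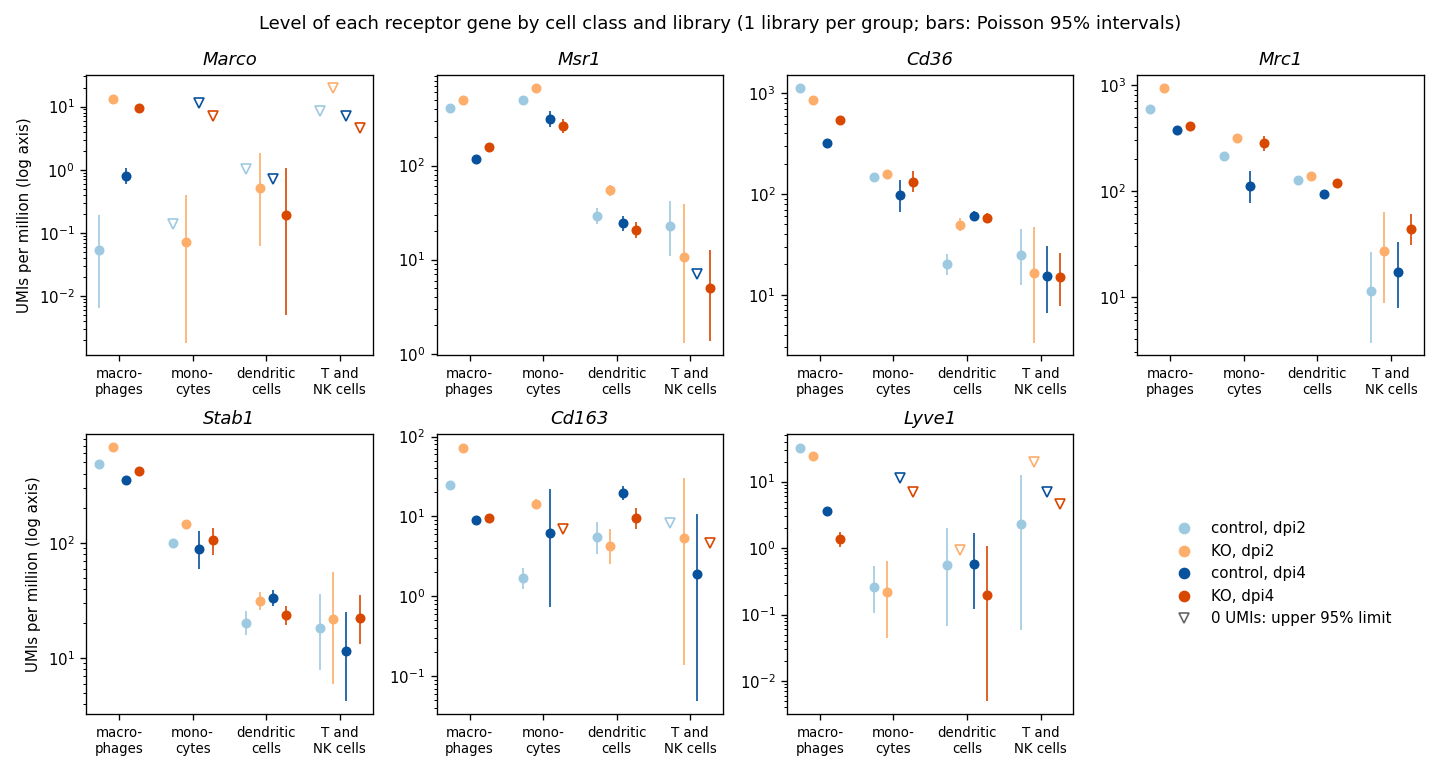
Level of each gene in CPM (log axis) in macrophages, monocytes, dendritic cells, and T and NK cells, with 1 point per library, Poisson 95% intervals as bars, and open triangles at the upper limit where 0 UMIs were counted. In macrophages Marco stood at 13 and 9.35 CPM in the KO libraries and at 0.0527 and 0.797 in control, while the levels of Msr1 in macrophages and monocytes lay between 117 and 663 CPM.

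Marco, the class A receptor with a collagenous stalk that binds bacteria and particles, was close to absent in control and present in a small fraction of KO macrophages. Its 4 macrophage levels were 0.0527, 13, 0.797 and 9.35 CPM, from 2, 390, 49 and 437 UMIs. Both KO libraries stood above both control libraries. The KO to control ratio was 247 (interval 67.9 to 2050) at dpi2, where control held only 2 UMIs, and 11.7 (8.71 to 16.1) at dpi4. In control the ratio of dpi4 to dpi2 was 15.1 (3.97 to 128), from 49 and 2 UMIs, only just enough for the size rule. The UMIs came from 2, 19, 21 and 89 macrophages, or 0.106%, 1.83%, 0.647% and 3.46% of them. When each cell was thinned to 2000 UMIs the shares were 0%, 0.771%, 0.0933% and 1.25%. The 0 of 1878 thinned cells in control dpi2 has a 95% upper limit of 0.196%, which limits the cells with a Marco UMI at 2000 UMIs and not the cells with the gene.

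Few cells carried the gene. In KO dpi2, 1 macrophage held 143 of the 390 Marco UMIs and 5 macrophages held 90%. In KO dpi4 the top macrophage held 71 of 437 UMIs and 5 held 43.0%, and in control dpi4 the top macrophage held 21 of 49. Without the top cell of each library the ratio was 313 (55.6 to 12400) at dpi2, now against 1 UMI, and 17.2 at dpi4, and without the 5 top cells of each library it was 20.5 at dpi4. At dpi2, without the 5 top cells, KO held 39 UMIs (1.31 CPM) and control 0, too few for the size rule. The ratio of dpi4 to dpi2 in KO depended on these cells: it was 0.718 over all macrophages, 0.95 without the top cell and 4.08 without the 5 top cells. The 19 KO dpi2 macrophages with Marco lay in sub-clusters 9 (7 cells, 139 UMIs), 11 (7 cells, 92 UMIs), 12 (2 cells, 14 UMIs) and 2 (2 cells, 2 UMIs), beside 1 cell of sub-cluster 6 with 143 UMIs. In KO dpi4 they were spread mainly over sub-clusters 6 (27 cells), 8 (17 cells), 4 (14 cells), 12 (10 cells) and 14 (10 cells). The 423 macrophages of sub-clusters 9 and 14 in control dpi2 held 0 Marco UMIs. Those of KO dpi2 stood at 18.0 CPM, 45.7 times the level that 3 UMIs would give in control. This is not a firm minimum, since the 139 UMIs came from 7 cells of sub-cluster 9, 3 of them with 5 or more. Within sub-cluster 9 the interval of the ratio, for counting error only, began at 37.7. At dpi4, among sub-clusters with at least 50 cells in both libraries and 50 or more Marco UMIs in the pair, KO over control was 3.12 in sub-cluster 8, and in the cycling sub-cluster 12, led by Top2a and Birc5, it was 78.7 (21.4 to 656) with 2 UMIs in control.

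Outside macrophages Marco was hardly seen. Monocytes held 0, 1, 0 and 0 UMIs and dendritic cells 0, 2, 0 and 1, and T and NK cells, which should lack the gene, held none in any library, with upper limits of 4.61 to 20 CPM that their small number allows. Markers of other cells also differed between these libraries: in macrophages the 4 platelet markers summed to 15.1, 131, 1.9 and 2.35 CPM (4, 3, 3 and 4 of them with a UMI), and the 6 neutrophil markers, all of them with UMIs, to 101, 286, 95.8 and 69.9 CPM. Their part in the Marco values was not tested.

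Msr1, the other class A receptor (scavenger receptor A), which takes up acetylated lipoproteins, followed the day rather than the genotype. Macrophages held 413, 504, 117 and 156 CPM, so that both dpi4 libraries stood below both dpi2 libraries. The ratio of dpi4 to dpi2 was 0.283 (0.276 to 0.292) in control and 0.309 (0.301 to 0.318) in KO. KO over control was 1.22 at dpi2 and 1.33 at dpi4, both short of 2-fold. Within sub-clusters it was 1.22 in 2 and 1.39 in 9 at dpi2 and between 1.27 and 1.84 in 1, 4, 8, 10 and 14 at dpi4, while the cycling sub-cluster 12 had 0.884 at dpi2 and 0.863 at dpi4. The share of thinned macrophages with Msr1 went the same way, with 51.3%, 56.9%, 17.1% and 23.3%, against 6.12%, 2.78%, 0% and 1.56% in T and NK cells.

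Monocytes were the cells with the highest Msr1 level in each library, at 503, 663, 313 and 266 CPM, followed by macrophages and then dendritic cells at 28.9, 54.4, 24.4 and 20.6 CPM. The intervals of neighbouring classes did not overlap in any library. Among monocytes at dpi2 the highest level was in sub-cluster 13 of KO (led by S100a9, S100a8 and Vcan), at 782 CPM, which held 397 KO and 60 control cells, and the ratio within it was 1.74 (1.55 to 1.96). Within the other monocyte sub-clusters 3, 5 and 7 it was 1.15, 1.29 and 1.01. Dendritic cells of KO dpi2 held 1.88 times (1.48 to 2.4) the control level, beside macrophage markers of 901 CPM in KO and 470 in control in the same cells. T and NK cells held 22.7, 10.8, 0 and 5.0 CPM, so the dendritic cell level in control dpi2 was near background.

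Cd36, the class B receptor for oxidised lipoproteins, long-chain fatty acids and apoptotic cells, had genotype ratios in macrophages that pointed in opposite directions on the 2 days. Macrophages held 1130, 854, 322 and 545 CPM. KO was below control at dpi2 and above it at dpi4, with ratios of 0.754 (0.742 to 0.766) and 1.69 (1.66 to 1.73), neither of them 2-fold, and the difference between the days was not tested. The level in control dpi4 was 0.284 of that in control dpi2, and in KO 0.638. Leaving out the 5 top cells of each library left the ratios at 0.736 and 1.71.

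Sub-clusters placed these values. At dpi2 the highest Cd36 levels were in sub-cluster 2, at 1450 CPM in control dpi2 and 1300 in KO dpi2, and in sub-cluster 11 of KO dpi2, at 1010 CPM. Within sub-cluster 2 the KO to control ratio was 0.899, within the resident-like sub-cluster 9 it was 1.13, and within the cycling sub-cluster 12 it was 0.453 (0.415 to 0.495). At dpi4 the highest level was in sub-cluster 8, led by Mmp12, Fabp4 and F7, at 676 CPM in control and 1080 in KO. KO was above control in 5 of the 6 sub-clusters with enough cells at dpi4: 1.45-fold in sub-cluster 1, 1.98 in 4, 1.6 in 8, 2.15 (1.93 to 2.4) in 10 and 1.52 in 14, while the ratio in the cycling sub-cluster 12 was 0.99 (0.939 to 1.04). Sub-cluster 10 was led by the interferon-response genes Ifit2, Rsad2 and Ifit3, and its Cd36 levels were 111 CPM in control and 240 in KO.

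**Figure D2:**
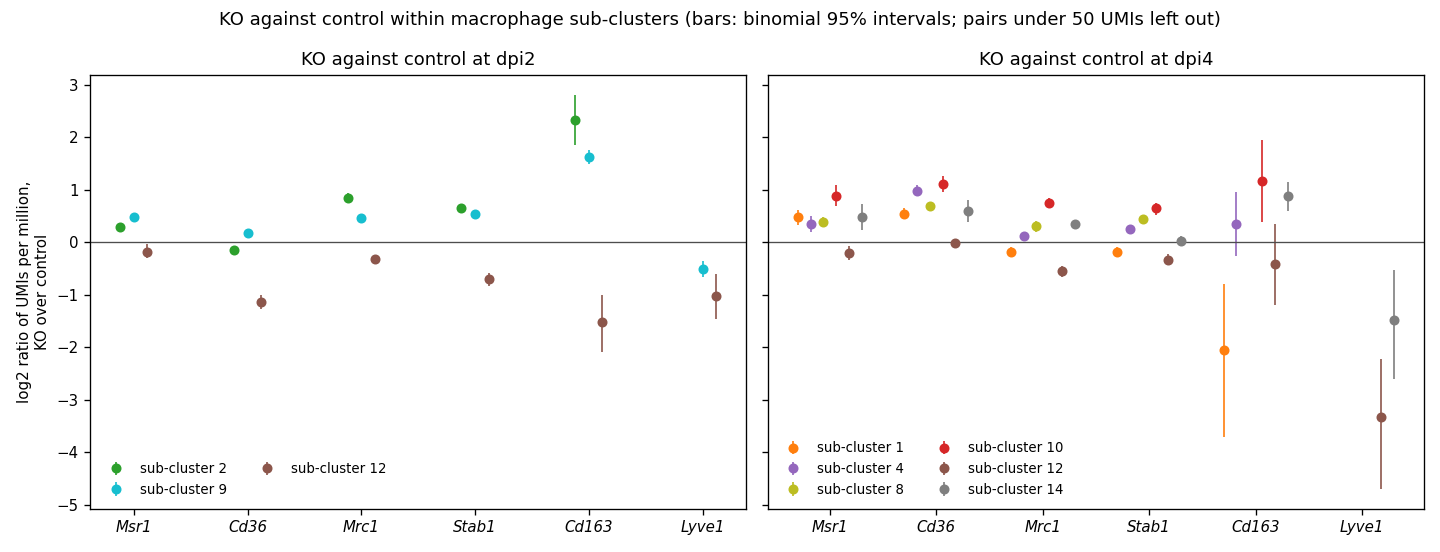
Ratio of KO over control (log2) for 6 genes within the macrophage sub-clusters that held at least 50 cells in both libraries, at dpi2 (left) and dpi4 (right), with binomial 95% intervals as bars. For Cd36 the sub-clusters lie between 0.453 and 1.13 at dpi2 and between 0.99 and 2.15 at dpi4, and Lyve1 lies below 1 wherever it had 50 UMIs.

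Capillary endothelial cells also express Cd36, and the few endothelial cells in the libraries (15 to 40) held 1060, 448, 1330 and 1410 CPM. In macrophages the 5 endothelial markers summed to 19.8, 8.44, 10.3 and 8.3 CPM, all 5 with a UMI in each library, and their part in the Cd36 values was not tested. Monocytes held 149, 158, 98.2 and 133 CPM of Cd36, with a ratio of 1.06 at dpi2. In dendritic cells the level was 20, 49.8, 60.5 and 58.1 CPM, and the value in KO dpi2, 2.49 times (1.89 to 3.31) that of control, came from few cells: 94 of its 196 UMIs were in 1 cell and 80.1% in 5. Without the top cell of each library the ratio was 1.47 (1.06 to 2.04), and without 5 it was 0.741 (0.474 to 1.15). With a finer clustering (Leiden resolution 2) the log2 ratio turned to -1.54. Of the 196 UMIs, 144 were in the 26 mature dendritic cells of KO dpi2, against 0 in the 23 of control, whereas in Cd209a dendritic cells the ratio was 0.777 (0.517 to 1.16). At dpi4 the highest dendritic cell level was in type 1 dendritic cells, at 128 CPM in control and 88.8 in KO.

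Mrc1 encodes the mannose receptor CD206, which takes up glycoproteins with terminal mannose. The study picked Mrc1 and Cd36 for display on these libraries, and Msr1 in chimeric mice with Bach1-cKO and wild-type donor cells, so the directions of these 3 genes are not independent evidence. Macrophages held 593, 928, 372 and 410 CPM. KO was above control on both days, 1.56-fold (1.54 to 1.59) at dpi2 and 1.1-fold (1.08 to 1.13) at dpi4. The ratio of dpi4 to dpi2 was 0.627 in control and 0.442 (0.434 to 0.45) in KO.

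Most of the Mrc1 UMIs at dpi2 were in sub-clusters 9 and 14, called resident-like macrophages here because 3 of 8 markers of resident macrophages were among the 10 leading genes of each (Cbr2, Gas6 and Ednrb in sub-cluster 9, and Ednrb, Cbr2 and F13a1 in sub-cluster 14). None of the 7 receptor genes was used to name or to build them. Timd4, another marker of resident macrophages, was near 0, with at most 4 UMIs in these cells in a library. At dpi2 other markers of the list differed between the genotypes within these cells: Cd209f and Cd209g held 0 UMIs in control and 79 and 15 in KO, Ednrb stood at 99.7 CPM in control and 394 in KO, and Folr2 at 352 and 210 CPM. Their part in the values of resident-like cells was not tested. Resident-like cells made up 22.4%, 28.8%, 7.49% and 4.43% of macrophages and held 62.5%, 68.2%, 25.9% and 13.7% of the macrophage Mrc1 UMIs. Their own Mrc1 level was 1850, 2460, 1600 and 2080 CPM, with KO to control ratios of 1.33 and 1.3, and in the other macrophages the ratios were 1.43 and 1.24. Without resident-like cells the KO level was nearly flat over time, with a log2 ratio of dpi4 over dpi2 of -0.13. Within sub-clusters KO stood above control in 2 (1.79), 9 (1.37), 4 (1.09), 8 (1.23), 10 (1.67) and 14 (1.27), and below it in the cycling sub-cluster 12 on both days (0.798 and 0.678) and in sub-cluster 1 (0.879).

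In monocytes Mrc1 stood at 213, 315, 110 and 279 CPM. The dpi2 ratio was 1.48, and within sub-cluster 13 it was 2.6 (2.13 to 3.19), from 105 UMIs in 60 control cells and 2325 UMIs in 397 KO cells. At dpi4 the ratio was 2.53 (1.75 to 3.75), from 36 and 147 UMIs in 37 and 64 cells, and 5 cells held 75.0% of the control and 63.3% of the KO UMIs. It was 2.43 (1.6 to 3.83) without the top cell of each library and 3.48 (1.71 to 8.03) without 5, the latter from 9 control and 54 KO UMIs. The thinned shares of these monocytes with Mrc1 were 18.9% in control and 22.2% in KO, with intervals that overlapped, and the log2 ratio was 0.87, no longer past the rule, with mitochondrial shares up to 20%. Dendritic cells held 126, 139, 92.9 and 118 CPM, with most of it in Cd209a dendritic cells (147, 164, 116 and 150 CPM) and less in type 1 dendritic cells (6.32, 31.3, 8.44 and 35.5 CPM, from 3, 12, 6 and 32 UMIs). T and NK cells held 11.4, 27.1, 17.2 and 43.8 CPM, so type 1 dendritic cells were near or below the background level.

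Stab1 encodes stabilin-1, a receptor for the matrix protein SPARC and modified lipoproteins on macrophages and sinusoidal endothelium. Its macrophage levels were the steadiest of the 7, at 481, 679, 352 and 419 CPM. KO was 1.41 times control (1.38 to 1.44) at dpi2 and 1.19 times (1.17 to 1.21) at dpi4, while the ratio of dpi4 to dpi2 was 0.733 in control and 0.617 in KO. No comparison over all macrophages passed the size rule for this gene. Within sub-clusters the KO to control ratio went both ways: at dpi2 it was 1.57 in 2, 1.46 in 9 and 0.611 (0.56 to 0.667) in the cycling sub-cluster 12, and at dpi4 it was 1.19 in 4, 1.35 in 8, 1.55 in 10, 1.02 in 14, 0.877 in 1 and 0.792 in 12. Among thinned macrophages 49.6%, 62.1%, 44.6% and 52.5% had a Stab1 UMI, against 2.74% to 5.56% of T and NK cells. Resident-like macrophages held 756, 1050, 937 and 937 CPM.

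Monocytes held less Stab1, at 100, 146, 89.0 and 105 CPM. In dendritic cells the ratio turned from 1.55 (1.15 to 2.1) at dpi2 to 0.705 (0.554 to 0.895) at dpi4, from 20.3, 31.5, 33.3 and 23.5 CPM. The macrophage markers in these cells were likewise higher in KO at dpi2 and lower at dpi4. These levels were close to the 11.5 to 22.5 CPM of T and NK cells. Mature dendritic cells, 23 to 61 a library, held 6, 51, 27 and 5 Stab1 UMIs, and Cd209a dendritic cells held 20.9, 22.0, 33.4 and 26.6 CPM.

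Cd163, the receptor for complexes of haemoglobin and haptoglobin, was higher in KO at dpi2. Macrophages held 24.5, 72.2, 9.0 and 9.67 CPM, from 930, 2166, 553 and 452 UMIs. KO dpi2 stood apart from the other 3 libraries, with a ratio of 2.95 (2.73 to 3.19), while at dpi4 the ratio was 1.07 (0.947 to 1.22). The level at dpi4 was 0.367 (0.33 to 0.408) of that at dpi2 in control and 0.134 (0.121 to 0.148) in KO. The call in control was lost without doublet removal, with monocytes pooled in and for the mean over cells, at log2 ratios of -0.81, -0.74 and -0.88. The dpi2 ratio was as large without the cells richest in Cd163, at 3.1 without the top cell of each library and 3.23 without the 5 top cells. The thinned share of macrophages with Cd163 was 2.88%, 8.09%, 1.65% and 2.19%, beside 0%, 2.78%, 1.37% and 0% of T and NK cells. At dpi4 the share in control was near this background.

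The dpi2 difference was seen within 2 of the 3 sub-clusters with enough cells and was turned round in the cycling cells. KO over control was 3.08 (2.81 to 3.39) in the resident-like sub-cluster 9, at 229 against 74.4 CPM, and 5.01 (3.59 to 7.0) in sub-cluster 2, at 15.3 against 3.06 CPM. In the cycling sub-cluster 12 it was 0.347 (0.234 to 0.5). Resident-like macrophages, which held 69.8%, 79.5%, 57.7% and 42.9% of the macrophage Cd163 UMIs, stood at 85.3, 223, 86.4 and 153 CPM. Their KO to control ratio was 2.62 at dpi2 and 1.78 (1.48 to 2.13) at dpi4, and that of the other macrophages was 2.15 and 1.4. Both ratios at dpi4 were above the 1.07 over all macrophages, in which resident-like cells were a smaller part in KO. Single sub-clusters at dpi4 differed: the ratio was 1.83 (1.52 to 2.2) in 14, 2.24 (1.3 to 3.87) in 10 and 1.27 (0.836 to 1.93) in 4, but 0.747 (0.435 to 1.27) in 12 and 0.239 (0.0761 to 0.576) in 1, from 5 KO and 106 control UMIs.

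Monocytes at dpi2 showed the same direction at a far lower level, 1.69 against 14.3 CPM, a ratio of 8.43 (6.09 to 11.9). These UMIs came from 40 of 2570 control and 62 of 990 KO monocytes. The part of background, as seen in T and NK cells above, was not tested. Of the 199 KO UMIs, 85 were in 1 cell, and the ratio was 5.17 without the top cell of each library and 4.26 (from 35 and 76 UMIs) without 5. The ratio was above 1 in each monocyte sub-cluster: 2.27 (1.14 to 4.32) in 3, 31.9 (5.0 to 1330, with 1 UMI in control) in 5, 5.07 (1.29 to 21.0, from 6 KO and 5 control UMIs) in 7 and 8.91 (1.55 to 356, again with 1 UMI in control) in 13. The pairs in 3, 5 and 7 held under 50 UMIs each. At dpi4 the 64 KO monocytes held 0 Cd163 UMIs. Set at a floor of 3 UMIs they would stand 2.51-fold below KO dpi2, a value that is not the limit of the interval. This value of 2.51 rests on the cell with 85 UMIs: without the top cell it was 1.44-fold, and without the 5 top cells the interval of the ratio ran from 0 to 1.49 and the gene was no longer past the rule. Dendritic cells held 5.57, 4.32, 19.8 and 9.52 CPM, with a dpi4 ratio of 0.482 (0.335 to 0.683), and in Cd209a dendritic cells alone it was 0.532 (0.367 to 0.763). The dpi4 difference fell short of the size rule at Leiden resolution 2, with each library clustered alone and for the mean over cells, at log2 ratios of -0.82, -0.69 and -0.88. The macrophage markers in dendritic cells were higher at dpi4 than at dpi2 and lower in KO than in control at dpi4, as Cd163 was.

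**Figure D3:**
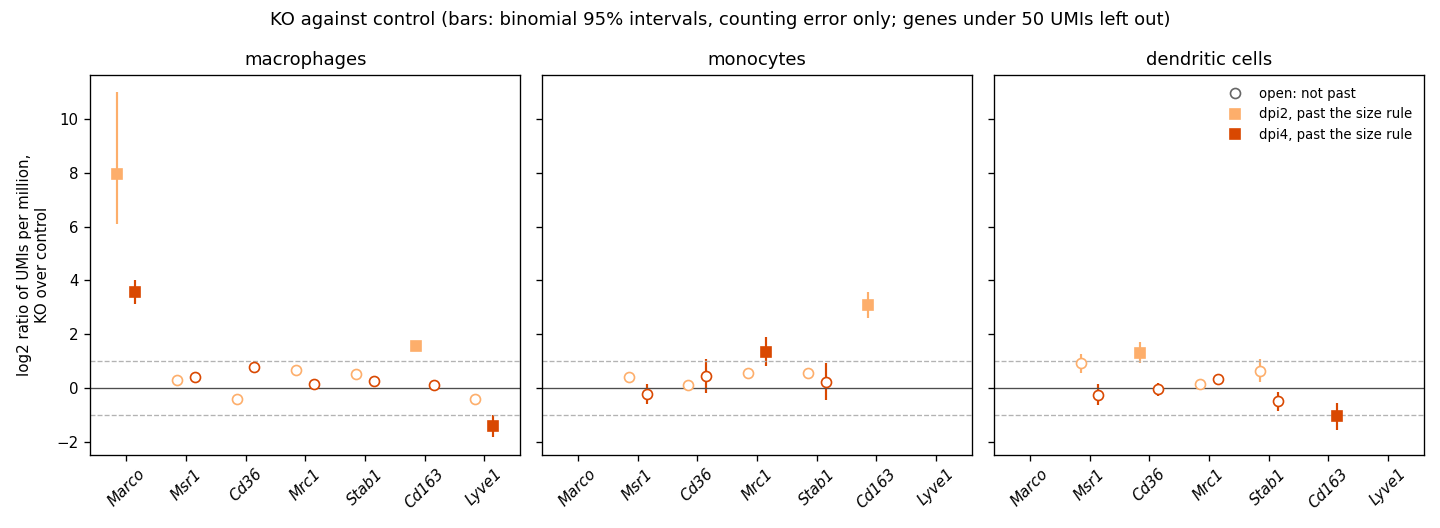
Ratio of KO over control (log2) for each gene in macrophages, monocytes and dendritic cells, at dpi2 (light) and dpi4 (dark), with binomial 95% intervals as bars, filled squares past the size rule, open circles not past it, and dashed lines at 2-fold. In macrophages Marco was past the rule on both days, Cd163 at dpi2 and Lyve1, on the lower side, at dpi4.

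Lyve1, a hyaluronan receptor of lymphatic endothelium and of macrophages around vessels, was lower in KO at dpi4, while its ratio at dpi2 was short of 2-fold. The dpi4 call was lost with mitochondrial shares up to 20%, where the log2 ratio was -0.79 in place of -1.42. Macrophages held 32.1, 24.3, 3.66 and 1.37 CPM, from 1217, 729, 225 and 64 UMIs. Both dpi4 libraries were far below both dpi2 libraries, with ratios of dpi4 to dpi2 of 0.114 (0.0986 to 0.132) in control and 0.0563 (0.0429 to 0.0727) in KO. The KO to control ratio was 0.758 at dpi2 (0.691 to 0.832) and 0.374 at dpi4 (0.279 to 0.496). Only 79, 49, 51 and 25 macrophages had a Lyve1 UMI. In KO dpi2 1 cell held 204 of 729 UMIs and 5 cells held 69.1%, and in control dpi2 5 cells held 36.2%. Without the 5 top cells of each library the dpi2 ratio was 0.368 and the dpi4 ratio 0.309. At dpi2 this step took out a larger part of the KO than of the control UMIs, so 0.368 does not measure the difference over all macrophages.

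Resident-like macrophages held 79.5%, 91.4%, 44.4% and 48.4% of the Lyve1 UMIs, at 127, 86.4, 27.1 and 24.5 CPM. Their KO to control ratio was 0.679 at dpi2 and 0.905 (0.584 to 1.37) at dpi4, while that of the other macrophages was 0.345 and 0.335. At dpi4 these values came from 100 control and 31 KO UMIs, of which sub-cluster 14, with 227 control and 104 KO cells, held 84 and 10, so that within it the ratio was 0.355 (0.164 to 0.685) and most of the KO UMIs lay in the few cells of sub-cluster 9. In the cycling sub-cluster 12 it was 0.491 at dpi2 and 0.0993 (0.0386 to 0.215) at dpi4. The 4 lymphatic endothelial markers summed to at most 0.299 CPM in macrophages, with 3, 1, 2 and 4 of them seen, and thus lay at or near 0. Monocytes held at most 7 Lyve1 UMIs a library, dendritic cells at most 3, and T and NK cells 1 in all.

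**Figure D4:**
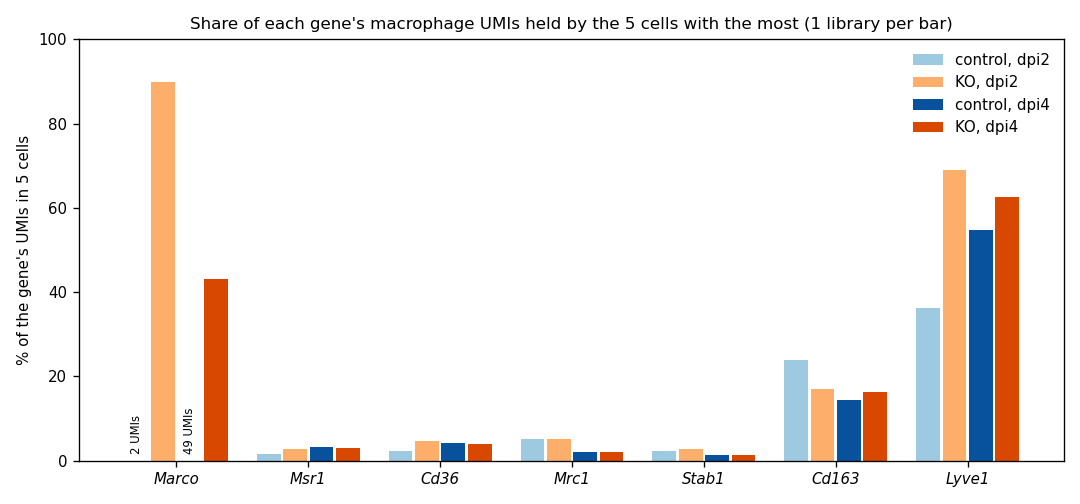
Percent of the macrophage UMIs of each gene that were held by the 5 cells with the most, with 1 bar per library and the UMI number in place of a bar where a library had under 50. The share reached 90% for Marco in KO dpi2 and 69.1% for Lyve1 in KO dpi2, and stayed under 6% for Msr1, Cd36, Mrc1 and Stab1.

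The 15 sub-clusters of monocytes and macrophages separated the genes into patterns. Mrc1, Stab1 and Cd163 had their highest levels in the resident-like sub-clusters 9 and 14, with Mrc1 at 2120 and 1740 CPM there over all libraries against 35.4 to 532 elsewhere. Lyve1 was highest in sub-cluster 9, at 102 CPM, which holds mostly dpi2 cells. In control dpi4 it stood at 24.7 CPM in sub-cluster 14 and 16.3 in the cycling sub-cluster 12, and in KO dpi4 at 8.76 and 1.62 CPM. Cd36 had its highest levels in sub-clusters 2 and 11 of dpi2 and 8 of dpi4. Msr1 followed the day, at 255 to 739 CPM in the sub-clusters of dpi2 cells and in cycling cells and 69.3 to 177 CPM in those of dpi4 cells. Marco, which was seen mostly in KO, is better read by library: in KO dpi4 it was highest in sub-clusters 14 and 12, at 35.0 and 34.2 CPM, against 9.11 in sub-cluster 6, and in KO dpi2 it stood at 17.8 CPM in sub-cluster 9 and at 6.35 in both 11 and 12. Its level of 17.9 CPM in sub-cluster 6 over all libraries includes the KO dpi2 cell with 143 of the 272 UMIs. Sub-cluster 15 was led by transcripts of muscle fibres such as Mylpf and Acta1 and held no more than 291 CPM of any of the 7 genes.

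**Figure D5:**
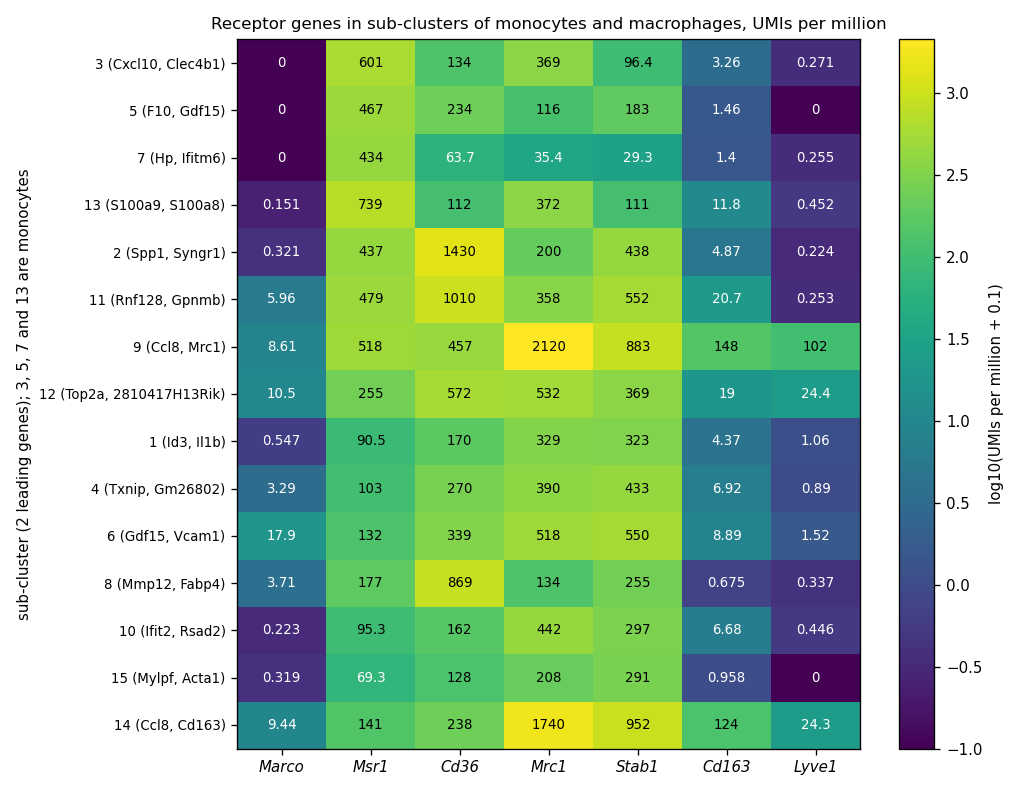
Level of each gene (columns) in the 15 sub-clusters of monocytes and macrophages (rows, with 2 leading genes each), in CPM over all libraries as printed, with colour on a log10 scale. Mrc1 reaches 2120 and 1740 CPM in the resident-like sub-clusters 9 and 14, and Cd36 reaches 1430 CPM in sub-cluster 2.

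Across 33 points, each a cluster in 1 library with at least 50 cells, the pairs most alike among the 7 genes were Cd36 with Stab1 and Mrc1 with Stab1 (Pearson r of log2(CPM + 1) of 0.8 each), Mrc1 with Cd163 (0.75) and Cd163 with Lyve1 (0.7). Marco was least like the others, with r between 0.05 and 0.42. Over all genes with at least 500 UMIs, the nearest to Msr1 were C5ar1 (0.97), the receptor of complement C5a, and Cers2 (0.97). The nearest to Cd36 were Rnf128 (0.94) and Igf2r (0.93), to Mrc1 Dab2 (0.89), an endocytic adaptor, and Etv1 (0.87), and to Stab1 Itsn1 (0.97) and Osbpl11 (0.96). Those of Cd163 were Mrc1 (0.75), Ednrb (0.7) and Lyve1 (0.7), of Lyve1 Lrrc4 (0.79), and of Marco Slc48a1 (0.67), a haem transporter, and Ivd (0.67). The points share libraries and sequencing depth, so these values describe likeness and carry no test.

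Single macrophages thinned to 10000 UMIs showed which receptors were seen in the same cells. Of the macrophages with Lyve1, 54 of 55, 29 of 29, 27 of 27 and 14 of 14 also had Mrc1, which was seen in 62.6%, 81.2%, 69.6% and 72.7% of all macrophages at this depth. Cd163 was found in 12.2% of macrophages with Mrc1 and 0.963% of those without in control dpi2, and in 21.1% and 3.19% in KO dpi2. Cd163 and Lyve1 were seen together 4.33, 3.69, 7.77 and 11.6 times as often as the product of their shares, in 19, 19, 8 and 7 cells. Cd36 and Mrc1 were seen together 0.881, 0.95, 0.916 and 0.926 times as often as that product in cells thinned to 2000 UMIs. At 10000 UMIs, where each was in 56.8% to 89.2% of macrophages, it was 0.983 to 1.01. In KO dpi4, 9 of 53 macrophages with Marco also had Cd163, 3.95 times the product.

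In monocytes 1 of the 5 genes with enough UMIs was past the size rule between genotypes at dpi2 (Cd163, beside 4.34% of all genes) and 1 of 4 at dpi4 (Mrc1, beside 3.61%). For dpi4 over dpi2, 0 of 4 were past it in control (beside 6.37%) and 2 of 5 in KO (Msr1 and Cd163, both lower, beside 8.35%). In dendritic cells 1 of 4 was past it at dpi2 (Cd36, beside 3.01%) and 1 of 5 at dpi4 (Cd163 lower, beside 1.27%). Over time it was 2 of 5 in control dendritic cells (Cd36 at 3.02 and Cd163 at 3.55, beside 6.88%; at Leiden resolution 2 Cd163 turned to a log2 ratio of -1.15 and Cd36 had one of 0.13) and 2 of 5 in KO (Cd163 at 2.2 and Msr1 at 0.379, beside 6.17%). Both calls in KO were lost with mitochondrial shares up to 20%, without doublet removal and at Leiden resolution 2, where the log2 ratios ran from 0.31 to 0.9 for Cd163 and from -0.99 to -0.27 for Msr1. With so few genes, a count of 1 or 2 does not place these classes above or below all genes.

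Other genes of the same task were listed by their roles. Their counts stand beside the same shares of all genes as above, which in macrophages were 4.3% at dpi2, 2.78% at dpi4, and 16.7% in control and 14.1% in KO over time. Of 22 other scavenger and lectin receptors 21 were matched. In macrophages 10 had enough UMIs at dpi2 and 2 were past the rule, both higher in KO: Ly75 (DEC-205), at 0.395 in control and 2.03 CPM in KO, and Olr1, the lectin-like receptor for oxidised lipoprotein, at 8.54 and 20.8 CPM. At dpi4 none of 15 was past it, with Stab2, the relative of Stab1, at 2.0 and 1.01 CPM. The median log2 ratio of the list was 0.3 at dpi2 and 0.02 at dpi4. From dpi2 to dpi4, 4 of 13 were higher in control, and 3 of 12 were higher and 2 lower in KO. In monocytes 1 of 9 was higher and 1 lower at dpi2 and 0 of 6 were past the rule at dpi4, and in dendritic cells 1 of 7 was higher at dpi2 and 1 of 8 lower at dpi4.

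Of 14 genes for the handling of what is taken up, 4 were higher in KO macrophages at dpi2 and 3 at dpi4. Hmox1, the enzyme that breaks down haem, stood at 680 CPM in control and 10300 in KO at dpi2 and at 477 and 7420 CPM at dpi4. Slc40a1, the iron exporter ferroportin, stood at 3.24 and 89.1 CPM at dpi2 and 73.6 and 796 at dpi4. The lowest log2 ratios of the list, none of them past the rule, were -0.86 for Fabp4, a fatty acid binding protein, and -0.76 for the cholesterol exporter Abcg1 at dpi2, and -0.86 for Hp (haptoglobin) and -0.36 for Plin2, a lipid droplet protein, at dpi4. The median log2 ratio of the list was 0.21 at dpi2 and 0.25 at dpi4. From dpi2 to dpi4, 3 were higher and 2 lower in control macrophages, and 2 higher and 2 lower in KO. In monocytes 3 of 14 were higher and 1 lower at dpi2 and 3 of 12 higher and 1 lower at dpi4, and in dendritic cells 4 of 13 were higher at dpi2 and 2 of 14 higher and 1 lower at dpi4.

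Of 9 transcription factors of macrophages, 3 were higher in KO macrophages at dpi2 and 1 at dpi4. Spic, the factor of red pulp macrophages that is induced by haem, stood at 1.74 CPM in control and 79.8 in KO at dpi2 and at 14.2 and 229 CPM at dpi4. Tfec, a factor of the MITF family, had log2 ratios of 1.3 and 0.92. Pparg, a nuclear receptor known to drive Cd36, had a log2 ratio of -0.93 at dpi2, and Nr1h3 one of -0.59. From dpi2 to dpi4, 3 were higher in control macrophages and 1 in KO, with none lower. In monocytes 2 of 9 were higher and 1 lower at dpi2 and 1 of 6 higher at dpi4, and in dendritic cells 1 of 8 was higher at dpi2 and 1 of 9 at dpi4.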

How the data were processed

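Single-cell RNA of CD45+ cells from injured muscle was measured in 4 libraries with a 10x Genomics 3′ kit (a version 2 protocol in the labels, version 3.1 in the study's methods). Per the submitters' processing notes the deposited files are UMI counts per gene and barcode made by the authors with Cell Ranger 6.1.2 on mm10, not normalized. From these counts, barcodes with at least 500 genes and under 10% mitochondrial UMIs were kept, doublets were removed with Scrublet (scanpy 1.11.5), and cells were clustered over all libraries on 2000 variable genes, 30 components and 15 neighbours (Leiden, resolution 1; leidenalg 0.10.2, Python 3.11.15), without the 7 receptor genes and the listed genes. Cell types were rebuilt from fixed markers, so they may differ from those of the study. Macrophages and monocytes were clustered again together. UMIs were summed by class and library and set against each other as described, with exact Poisson intervals for levels, exact binomial intervals for ratios and Clopper-Pearson intervals for shares. A UMI count covers reads of 1 molecule, but UMIs of 1 cell are not independent. The genes named are the 7 receptors, the 2 highest and 2 lowest genes of each list, Bach1 and Lyz2 for the labels, and the 3 genes most like each receptor. Markers, leading genes of sub-clusters and the genes of Marco-rich cells are named beside them, the last chosen after their values were seen. The receptors and lists were chosen with earlier results of these data known. Alternatives changed filters, clustering, scaling (edgeR 4.0.16 TMM factors, R 4.3.3) and thresholds. Of the methods, the size rule and the ratio intervals were tested on simulated macrophage sums. These had counting error only and no uneven spread of UMIs over cells.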

Additional observations from a re-analysis of the deposited data

Results flagged for a closer look

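Cd36 in macrophages was picked out because KO lay below control at dpi2 and above it at dpi4. The log2 ratio of KO over control was -0.41 at dpi2 and 0.76 at dpi4, a difference of 1.17, and with 1 library a group this difference was not tested. Within the 3 macrophage sub-clusters with enough cells at dpi2 the ratios were 0.899, 1.13 and 0.453, and within the 6 at dpi4 they ran from 0.99 to 2.15.

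Stab1 in dendritic cells was picked out in the same way, with a log2 ratio of 0.63 at dpi2 and -0.5 at dpi4, a difference of -1.14 that was not tested either. The macrophage markers summed over dendritic cells were 470 CPM in control and 901 in KO at dpi2 and 5420 and 3100 CPM at dpi4, and their part in the Stab1 values was not tested. Mature dendritic cells held 6 and 51 Stab1 UMIs in control and KO at dpi2, and 27 and 5 at dpi4.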

How the results depend on the processing

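No paired analysis was possible because the labels number no replicates and each group is 1 library, so no library could be left out either. A fit that takes the 2 days as replicates of a genotype was not run. Of 170 counts of receptor genes past the size rule under an alternative, 135 lay within 1.5 times the reported count. Of 259 finite values of the 22 log2 ratios past the rule, 229 stayed past it in the same direction and 3 changed sign, 2 of them past the rule on the other side. In macrophages the dpi4 count between genotypes went from 2 to 1 with mitochondrial shares up to 20%, where Lyve1 had a log2 ratio of -0.79, and the count over time in control went from 5 to 3 without doublet removal. The dpi2 count between genotypes in macrophages lost Marco without the 5 top cells of each library. In monocytes, pooling with macrophages gave 2 at dpi2, 2 at dpi4 and 4 over time in control. The monocyte count at dpi4 was 0 with mitochondrial shares up to 20% or with at least 200 UMIs. That over time in control was 1 with 200 genes a barcode, no doublet removal, resolution 2, the receptor genes among the variable genes, TMM factors or without the top cell of each library, 3 at 1.5-fold and 4 without the 5 top cells. That over time in KO was 5 with each library clustered alone, 1 with at least 200 UMIs and 4 without the 5 top cells. In dendritic cells at dpi2 it was 3 with 200 genes a barcode, mitochondrial shares up to 20%, each library alone or 1.5-fold, 4 at resolution 2, 2 with the receptor genes among the variable genes, and 0 for the mean over cells or without the top cell or the 5 top cells. At dpi4 it was 2 with each library alone and 0 for the mean over cells or with at least 200 UMIs. Over time it was 1 with at least 200 UMIs in control, and in KO 0 with mitochondrial shares up to 20% or no doublet removal, 5 with each library alone and 1 with at least 200 UMIs. In dendritic cells, Cd36 at dpi2 had a log2 ratio of -1.54 at resolution 2 and -0.43 without the 5 top cells, and Cd163 over time in control one of -1.15 at resolution 2. The cause was not tested.

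The log2 ratios that passed the rule under every alternative run were, in macrophages, Marco between genotypes (7.42 to 8.36 at dpi2, 2.97 to 4.36 at dpi4), Cd163 at dpi2 (1.11 to 1.85), and Msr1 and Lyve1 over time in both genotypes, Cd36 in control and Cd163 in KO, and in monocytes Cd163 at dpi2 (1.84 to 3.38) and Msr1 over time in KO. Marco over time in control macrophages, with 49 and 2 UMIs, fell short of the rule in 5 of 12 alternatives with a finite ratio, while its log2 ratio stayed between 3.53 and 4.69. It also fell short without the 5 top cells of each library, with 16 and 0 UMIs. Mrc1 over time in KO macrophages ran from -1.19 to -0.13 and Cd163 over time in control macrophages from -1.46 to -0.74. Values of Marco and Lyve1 rest on few cells, and monocyte values at dpi4 on few monocytes.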

Other observations

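The KO macrophages with at least 5 Marco UMIs, 8 at dpi2 and 21 at dpi4, were set beside the other macrophages of their library. Because the cells were chosen by Marco, these values describe them and carry no test. Genes were ranked by the ratio of these levels, a look taken after the Marco values were seen. Ranked genes had at least 100 UMIs in the chosen cells and were seen in at least as many of these cells as lacked them. The cell numbers below are in part set by this filter, and the cells were chosen without thinning. Slc40a1, the iron exporter ferroportin, was among the leading 8 on both days, at 380 against 86.5 CPM at dpi2 (in 8 of 8 cells) and 1440 against 788 CPM at dpi4 (in 20 of 21 cells). At dpi2 the granule and calcium-binding genes of neutrophils and young monocytes S100a9 (648 against 89.8 CPM) and S100a8 (958 against 144 CPM), each in 6 of 8 cells, and the lysozyme gene Lyz1 (2020 against 479 CPM, in 7 of 8) were, with Slc40a1, the leading 4. At dpi4 it was led by Mfge8, a bridge for the uptake of apoptotic cells (662 against 156 CPM, in 13 of 21 cells), and Folr2, a folate receptor of resident macrophages (298 against 112 CPM, in 19), and it held Tfrc, the transferrin receptor (173 against 75.2 CPM, in 16), and Cd36 (965 against 540 CPM, in 21).

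In neutrophils, of which the libraries held 620, 761, 127 and 35, Marco had 1 UMI in KO dpi2 and 0 in the other libraries. Msr1 stood there at 17.3, 16.9, 2.74 and 0 CPM, against 22.7, 10.8, 0 and 5.0 CPM in T and NK cells, and Stab1 at 26.7, 51.1, 35.6 and 50.4 CPM, against 18.2, 21.7, 11.5 and 22.5 CPM. Mrc1 in neutrophils was at 26.7, 52.2, 32.9 and 90.8 CPM (11.4, 27.1, 17.2 and 43.8 in T and NK cells), with KO to control ratios of 1.96 (1.37 to 2.85) at dpi2 and, from 9 and 12 UMIs, 2.76 (1.03 to 7.14) at dpi4. Cd36 was at 34.7, 23.2, 13.7 and 10.1 CPM (at most 25.0 CPM in T and NK cells), with a ratio of 0.667 (0.455 to 0.983) at dpi2.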
